A study of Mus musculus with 4 samples.

Results

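The genes described here carry proteins between the endoplasmic reticulum (ER) and the Golgi. They are 46 mouse genes, chosen by what their products do, but with earlier results of these data known. Of these, 45 had a probe set of their own among the 19938 genes measured. They comprise 12 genes of the COPII coat, 13 genes of cargo receptors and related membrane proteins, 2 KDEL receptors, 9 genes of the COPI coat and 9 genes of tethers, fusion proteins (SNAREs) and Golgi membrane proteins. Kdelr2, a further KDEL receptor, had no probe set paired with its symbol and was not analysed here. The level of a gene is the authors' log2 value for 1 probe set, the one that averaged highest where a gene had several. All levels and differences below are on this log2 scale, on which a difference of 1 is a doubling.

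The study sorted crypt cells from the small intestine of adult mice treated with tamoxifen for 2 days. Zip7 KO mice were Zip7flox/flox with villin-CreERT2 and Lgr5-EGFP-ires-CreERT2, and control mice were Zip7flox/+ with both of these transgenes. Zip7 is Slc39a7, a zinc transporter of the ER and Golgi. Controls thus carry the drivers, receive tamoxifen and can lose 1 copy, while the villin promoter directs the recombinase to the intestinal epithelium, and the labels name each sorted fraction by its Lgr5 level. There were 4 arrays: Zip7 KO labelled Lgr5-Hi, control labelled Lgr5-Hi, Zip7 KO labelled Lgr5-Med and control labelled Lgr5-Med, 1 array each. The sources used here do not give the number of mice behind an array. Without replicates no difference was tested and none has an error, so precision is limited by having 1 array per group. Differences are set beside those of all genes above an expression floor.

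Proteins that enter the ER leave it in vesicles with a COPII coat. The GTPase SAR1, loaded with GTP by PREB, recruits the inner coat of SEC23 and SEC24, SEC24 picks the cargo, and SEC13 with SEC31 forms the outer cage. Tethers and SNAREs then let the vesicles fuse with the Golgi, and vesicles with a COPI coat carry receptors and escaped ER proteins back, with KDEL receptors holding such escaped proteins. Secretory cells such as Paneth and goblet cells depend on this traffic, and several of its genes are known targets of the unfolded protein response, by which a cell adjusts to misfolded protein in the ER.

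Several facts of the arrays bear on every comparison. Slc39a7 itself stood at 9.02 in Zip7 KO and 8.92 in control under Lgr5-Hi, and 8.22 in Zip7 KO and 8.61 in control under Lgr5-Med, and where its probes lie with respect to the deleted exons was not known. Lgr5 went against the fraction labels, at 7.93 and 11.24 on the Zip7 KO arrays labelled Lgr5-Hi and Lgr5-Med, and at 7.79 and 10.97 on the control arrays with these labels. The fractions are therefore called by their labels throughout. Genotype was confounded with sex: Xist, expressed from the inactive X chromosome of females, was at 5.59 and 5.43 on the Zip7 KO arrays, against 11.64 and 11.84 on the control arrays, and the Y-linked gene Eif2s3y was at 8.12 and 8.11 in Zip7 KO, against 4.10 and 4.24 in control, so that genotype and sex cannot be told apart. The epithelial marker Vil1 lay between 11.28 and 11.66 on the 4 arrays. All 45 transport genes were above the floor on every array (floors 6.10 to 6.25), at 6.43 to 11.84, so that none entered a comparison by its value on 1 array alone.

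ER-Golgi transport genes were highest on the Zip7 KO array labelled Lgr5-Hi. This was the highest of the 4 arrays for 40 of the 45 genes, whereas it was so for 26.9% of all 12426 genes above the floor. The lowest array was 1 of those labelled Lgr5-Med for 41 genes. It was the Zip7 KO array for 21 of the 45, with 30.1% of all genes, and the control array for 20, with 17% of all genes. The 5 genes not highest on the Zip7 KO array labelled Lgr5-Hi were Sec24b, Ergic1 and Ergic3, which were lowest there, and Kdelr3 and Copz2, which were highest on the control array with that label. The sizes were modest, and no transport gene was 1.5-fold higher or lower in Zip7 KO than in control under either label.

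**Figure D1:**
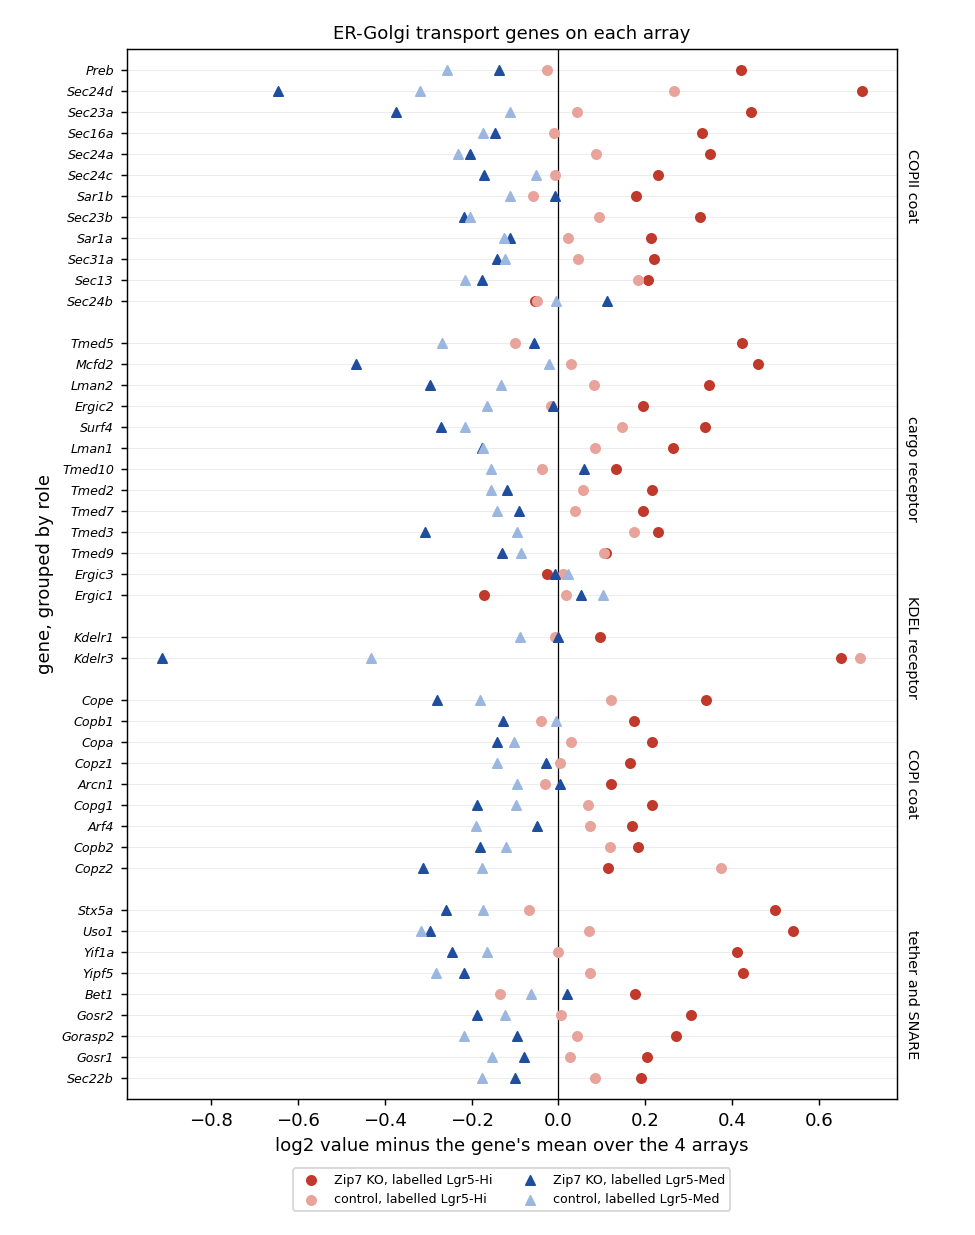
The value of each of the 45 ER-Golgi transport genes on the 4 arrays, as the log2 value minus that gene's own mean over the arrays (horizontal axis), with genes grouped by role. Each point is 1 array, with no replicates; the dark red points (Zip7 KO, labelled Lgr5-Hi) are the rightmost for 40 genes. Positions within a row can be compared, and levels of different genes are not shown.

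Under the label Lgr5-Hi, 40 of the 45 genes were higher in Zip7 KO than in control, where 55% of all 12017 genes counted were higher. The median difference was 0.19 (-0.26 to 0.57), against 0.02 over all genes counted. A difference of 0.32 or more, which is a value 25% higher, was reached upwards by 10 of the 45, with 6.93% of all genes, and downwards by 0, with 5.55% of all genes. The 10 were Stx5a, Tmed5, Uso1, Preb, Sec24d, Mcfd2, Yif1a, Sec23a, Yipf5 and Sec16a. Their number was 7 with quantile normalisation, 8 with centred arrays, 8 with a loess trend on level removed and 9 with the mean of a gene's probe sets. The shares of all genes were then 4.82%, 5.16%, 5.63% and 6.81%. The 5 genes that were lower, Copz2, Ergic1, Kdelr3, Ergic3 and Sec24b, lay between -0.26 and -0.0042. Nearest to the size used for counting were Sec16a at 0.34 inside it and Bet1 and Gosr2 at 0.31 and 0.30 outside it.

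Under the label Lgr5-Med the same genes lay on both sides of 0. In Zip7 KO 22 were higher than in control and 23 lower, while 44.2% of all 12257 genes were higher, and the median was -0.0019 (-0.48 to 0.21) against -0.03 over all genes. When each array was centred on the median of its expressed genes, 32 transport genes were higher there, with 59% of all genes, so the split of signs rests on the scaling for both. None was higher by 0.32 or more, as 3.47% of all genes were, and 3 were lower by 0.32 or more, as 8.39% of all genes were. The 3 were Kdelr3, Mcfd2 and Sec24d, of which Sec24d at -0.33 was nearest to that size. With quantile normalisation, with arrays centred on the median or with a loess trend on level removed, 2 were lower by 0.32 or more. The shares of all genes were then 9.95%, 5.37% and 7.02%. Of the 45, 21 were higher in Zip7 KO under both labels, with 29.6% of all 12426 genes above the floor on at least 1 array, and 19 were higher under Lgr5-Hi and lower under Lgr5-Med, with 24.6%. Another 4 were lower under both, with 31.1% of all genes, and 1, Sec24b, was lower under Lgr5-Hi and higher under Lgr5-Med, with 14.7%.

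**Figure D2:**
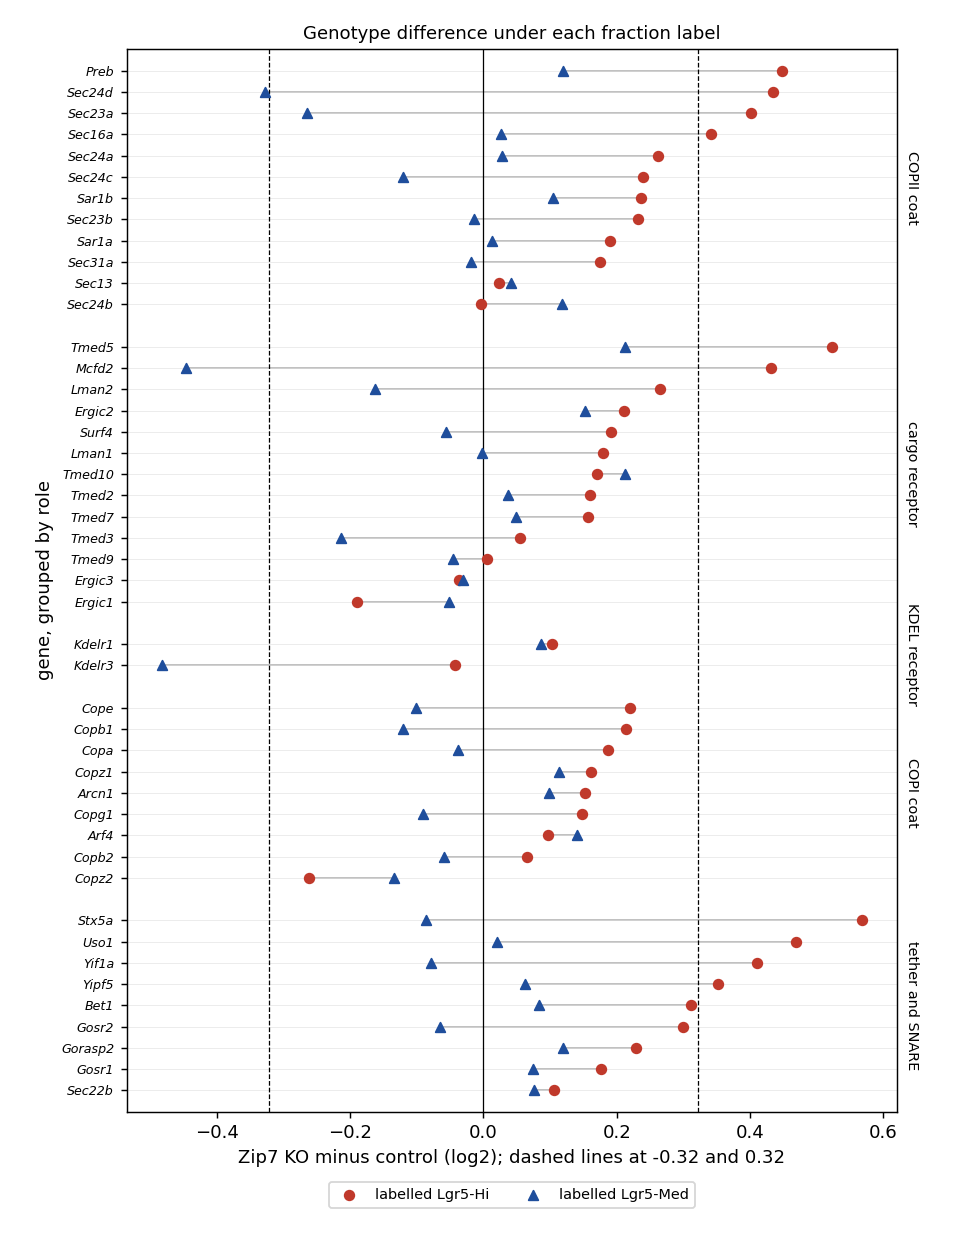
Zip7 KO minus control (log2, horizontal axis) for each of the 45 genes under the label Lgr5-Hi (red circles) and the label Lgr5-Med (blue triangles), 1 array per genotype and label, with no error. Dashed lines mark differences of 0.32 in either direction. Beyond the upper line lie 10 circles, and beyond the lower one 3 triangles, Kdelr3, Mcfd2 and, only just, Sec24d.

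The promoters of several transport genes hold the core of the unfolded protein response element (UPRE), TGACGTGG, a sequence bound by the transcription factors XBP1 and ATF6. RefSeq promoters (GRCm38.p6, 250 bases before to 50 after an annotated gene start) were at hand for 40 of the 46 genes, and 6 of the 40 (15%) held it on either strand, against 0.714% of 27025 genes in the table. It was also found in 4 of 63 genes (6.35%) of a list of other ER-Golgi transport genes and in 0 of 15 ER chaperone genes. The ER stress element (ERSE), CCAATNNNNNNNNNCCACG, was found in 0 of the 40 and in 8 of the 15 chaperone genes, against 0.137% of all genes, and the related ERSE-II, which is ATTGG, any 1 base and CCACG, in 0 of the 40 and 1 of the 15, against 0.0444%. A CCAAT box, which is also the start of the ERSE and, read from the other strand, of the ERSE-II, was in 17 of the 40 (42.5%), against 41.1% of all genes. In these shares all genes are those of the promoter table, not limited to genes above the floor as the 40 were. No share was computed over expressed genes alone. The 6 are printed 5′ to 3′ on the strand of the gene, because they include Stx5a, Sec24d, Kdelr3 and Sec23a, which had large differences below. Capitals mark the UPRE core, which reads CCACGTCA where it lies on the opposite strand, and in the whole promoters of Sec24d and Stx5a also the CCAAT box. The match begins 26 bases before the annotated start in Sec24d, 28 before in Copb1, 7 before in Copb2 and 30 before in Kdelr3, and 6 bases after it in Sec23a. Stx5a has 2 matches, beginning 9 and 39 bases after 1 of its annotated starts. A match describes the letters only, and no binding was measured.
Sec24d (chr3:123267246-123267545, plus strand): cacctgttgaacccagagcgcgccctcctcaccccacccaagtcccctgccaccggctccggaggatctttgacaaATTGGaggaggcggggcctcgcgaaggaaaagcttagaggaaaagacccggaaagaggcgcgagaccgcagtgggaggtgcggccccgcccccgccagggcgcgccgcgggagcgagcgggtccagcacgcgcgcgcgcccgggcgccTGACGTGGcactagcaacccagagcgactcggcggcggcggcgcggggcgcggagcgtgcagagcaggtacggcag
Stx5a (chr19:8741174-8741473, plus strand): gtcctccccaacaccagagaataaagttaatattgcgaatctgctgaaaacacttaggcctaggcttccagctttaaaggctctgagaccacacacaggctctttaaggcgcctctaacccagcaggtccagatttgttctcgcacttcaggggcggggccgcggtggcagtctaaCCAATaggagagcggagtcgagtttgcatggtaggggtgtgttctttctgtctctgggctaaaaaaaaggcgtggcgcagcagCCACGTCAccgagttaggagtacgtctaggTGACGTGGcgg
Sec23a (chr12:59011978-59012037, minus strand): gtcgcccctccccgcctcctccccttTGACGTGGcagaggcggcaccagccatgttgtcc
Kdelr3 (chr15:79516352-79516411, plus strand): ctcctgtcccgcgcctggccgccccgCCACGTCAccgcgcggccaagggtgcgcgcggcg
Copb1 (chr7:114254675-114254734, minus strand): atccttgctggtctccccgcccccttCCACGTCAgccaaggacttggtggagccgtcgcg
Copb2 (chr9:98563698-98563757, plus strand): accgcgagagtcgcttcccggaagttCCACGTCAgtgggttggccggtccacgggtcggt

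Of the 6 genes with the UPRE core, 5 were higher in Zip7 KO under the label Lgr5-Hi, with 55% of all genes. So were 30 of the 34 transport genes whose promoters lack the core. Under the label Lgr5-Med none of the 6 was higher with the deposited values, with 44.2% of all genes. Under the label Lgr5-Hi their genotype differences were 0.57 for Stx5a, 0.43 for Sec24d, 0.40 for Sec23a, 0.21 for Copb1, 0.06 for Copb2 and -0.04 for Kdelr3, with a median of 0.31, against 0.19 for the 34 transport genes whose promoters lack it. Under the label Lgr5-Med the 6 lay between -0.48 and -0.06, with a median of -0.19, against 0.02 for the 34, of which 18 were higher. Centring each array on its median raises the differences there by 0.07, which takes Copb2 (-0.06) above 0. The counts of genes higher under Lgr5-Med thus rest on the scaling. Labelled Lgr5-Hi minus Lgr5-Med had a median of 0.79 over the 6 in Zip7 KO, against 0.37 over the 34, and of 0.20 in the control, against 0.17. These medians describe 6 genes on shared arrays and were not tested.

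Among the COPII genes 11 of 12 were higher in Zip7 KO under the label Lgr5-Hi (55% of all genes), with a median of 0.24. By 0.32 or more 4 of them were higher (6.93% of all genes). Preb, whose product (known as SEC12) loads SAR1 with GTP and so starts coat assembly, stood at 10.27 in Zip7 KO and 9.83 in control under Lgr5-Hi, and 9.72 in Zip7 KO and 9.60 in control under Lgr5-Med. Its differences were 0.45 and 0.12, and the Zip7 KO array labelled Lgr5-Hi stood apart from the other 3. Sec24d, a cargo-selecting subunit of the inner coat, stood at 9.79 in Zip7 KO and 9.35 in control under Lgr5-Hi, and 8.44 in Zip7 KO and 8.77 in control under Lgr5-Med, which gives 0.43 (1.35-fold) and -0.33. It was higher in Zip7 KO under 1 label and lower under the other. Each difference passed 0.32 with the deposited values, that under Lgr5-Med only just. Both arrays labelled Lgr5-Hi were above both labelled Lgr5-Med. Sec23a, the GTPase-activating partner of SEC24 in the inner coat, had the same order of arrays, at 10.57 in Zip7 KO and 10.17 in control under Lgr5-Hi, and 9.75 in Zip7 KO and 10.02 in control under Lgr5-Med, with differences of 0.40 and -0.26. Sec16a, the scaffold of ER exit sites, stood at 8.97 in Zip7 KO and 8.62 in control under Lgr5-Hi, and 8.49 in Zip7 KO and 8.46 in control under Lgr5-Med, and only its Zip7 KO array labelled Lgr5-Hi was away from the others, by 0.34 from its control.

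Genotype differences of paralogues within the coat were unlike in some cases and close in others, with no error to judge them by. Of the 4 SEC24 genes, Sec24d, Sec24a and Sec24c were higher in Zip7 KO under the label Lgr5-Hi by 0.43, 0.26 and 0.24, whereas Sec24b was at -0.0042, its levels being 9.09 in Zip7 KO and 9.09 in control under Lgr5-Hi, and 9.26 in Zip7 KO and 9.14 in control under Lgr5-Med. Sec23b, the second SEC23 gene, differed by 0.23 and -0.01 under the labels Lgr5-Hi and Lgr5-Med, a narrower spread than that of Sec23a. The GTPase genes Sar1b and Sar1a differed by 0.24 and 0.19 under Lgr5-Hi and by 0.10 and 0.01 under Lgr5-Med. Sar1b and Sec24a are adjacent protein-coding genes on chromosome 11 in the RefSeq table. Of the outer cage genes Sec31a differed by 0.17 and -0.02. Sec13 stood at 9.84 in Zip7 KO and 9.81 in control under Lgr5-Hi, and 9.46 in Zip7 KO and 9.41 in control under Lgr5-Med, with differences of 0.02 and 0.04. Sec13 was among the genes with the smallest genotype differences, and its arrays separated by fraction label.

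Of the 13 cargo receptors and related membrane proteins 11 were higher in Zip7 KO under the label Lgr5-Hi (55% of all genes), with a median of 0.17. Under the label Lgr5-Med 5 were higher, near the 44.2% of all genes, with a median of -0.03. Tmed5, a member of the p24 family that escorts cargo such as GPI-anchored proteins, stood at 9.25 in Zip7 KO and 8.73 in control under Lgr5-Hi, and 8.77 in Zip7 KO and 8.56 in control under Lgr5-Med, with differences of 0.52 (1.44-fold) and 0.21. Mcfd2, the soluble partner of the lectin LMAN1 in exporting coagulation factors from the ER, stood at 8.80 in Zip7 KO and 8.37 in control under Lgr5-Hi, and 7.87 in Zip7 KO and 8.32 in control under Lgr5-Med. It was higher by 0.43 under Lgr5-Hi and differed by -0.45 under Lgr5-Med, so its Zip7 KO arrays held both its highest and its lowest value. Lman1 itself differed by 0.18 and -0.0019. Lman2, a related lectin of the early secretory pathway, stood at 10.71 in Zip7 KO and 10.44 in control under Lgr5-Hi, and 10.06 in Zip7 KO and 10.23 in control under Lgr5-Med, with differences of 0.26 and -0.16.

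The other genes of this group were all within 0.32 of their controls. Tmed10, a p24 protein, stood at 10.81 in Zip7 KO and 10.64 in control under Lgr5-Hi, and 10.74 in Zip7 KO and 10.52 in control under Lgr5-Med, and was higher in Zip7 KO by 0.17 and 0.21, but its second probe set gave 0.15 and -0.03. Tmed9, another p24 gene, stood at 7.76 in Zip7 KO and 7.75 in control under Lgr5-Hi, and 7.52 in Zip7 KO and 7.56 in control under Lgr5-Med. Ergic3, which encodes a membrane protein that cycles between ER and Golgi, stood at 10.35 in Zip7 KO and 10.39 in control under Lgr5-Hi, and 10.37 in Zip7 KO and 10.40 in control under Lgr5-Med. Ergic3, Sec13 and Tmed9 had the smallest genotype differences of the 45, down to -0.05 for Tmed9 under Lgr5-Med. Tmed9 separated by fraction label, while the 4 arrays of Ergic3 lay close together. Ergic1, of the same kind, was at -0.19 and -0.05, and Ergic2 at 0.21 and 0.15. The 3 probe sets of Tmed2 gave differences of 0.16, 0.23 and 0.16 under Lgr5-Hi and of 0.04, 0.01 and 0.04 under Lgr5-Med. Surf4, a receptor for many soluble cargoes, differed by 0.19 and -0.06, Tmed7 by 0.16 and 0.05, and Tmed3 by 0.06 and -0.21.

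The KDEL receptors, which return escaped ER chaperones from the Golgi, were unlike each other. Kdelr3 stood at 8.19 in Zip7 KO and 8.23 in control under Lgr5-Hi, and 6.62 in Zip7 KO and 7.10 in control under Lgr5-Med. Both arrays labelled Lgr5-Hi were well above both labelled Lgr5-Med, by 1.57 in Zip7 KO (2.96-fold) and 1.13 in control (2.18-fold), the largest fraction differences among the 45 genes. Its genotype differences were -0.04 under Lgr5-Hi and -0.48 under Lgr5-Med, the lowest of the 45 there. The differences of 1.57 and -0.48 both use its value of 6.62, which was near that array's floor of 6.15. Kdelr1 stood at 10.71 in Zip7 KO and 10.61 in control under Lgr5-Hi, and 10.61 in Zip7 KO and 10.53 in control under Lgr5-Med, with differences of 0.10 and 0.09. Under Lgr5-Hi the chaperones that carry the retrieval signal differed from control by more than either receptor, Hspa5 (BiP) by 0.61 and Hsp90b1 (GRP94) by 0.69.

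The COPI genes differed within a narrow range. Under the label Lgr5-Hi 8 of 9 were higher in Zip7 KO (55% of all genes), with a median of 0.15. None was higher by 0.32 or more (6.93% of all genes). Under Lgr5-Med 3 of 9 were higher (44.2% of all genes), with a median of -0.06. Cope, the epsilon subunit, stood at 10.54 in Zip7 KO and 10.32 in control under Lgr5-Hi, and 9.92 in Zip7 KO and 10.02 in control under Lgr5-Med, with differences of 0.22 and -0.10. Copb1, a beta subunit, stood at 9.96 in Zip7 KO and 9.75 in control under Lgr5-Hi, and 9.66 in Zip7 KO and 9.78 in control under Lgr5-Med, with differences of 0.21 and -0.12. Copa, the alpha subunit, stood at 11.84 in Zip7 KO and 11.65 in control under Lgr5-Hi, and 11.48 in Zip7 KO and 11.52 in control under Lgr5-Med, with differences of 0.19 and -0.04. Each of these coat subunits was highest on the Zip7 KO array labelled Lgr5-Hi and lowest on the Zip7 KO array labelled Lgr5-Med. The other coat genes Copb2, Copg1, Copz1 and Arcn1 (the delta subunit) and the GTPase gene Arf4 were higher by 0.06 to 0.16 under Lgr5-Hi. Copz2, a paralogue of Copz1 and the gene nearest to the floor, was the exception, at 6.85 in Zip7 KO and 7.11 in control under Lgr5-Hi, and 6.43 in Zip7 KO and 6.56 in control under Lgr5-Med, with differences of -0.26 and -0.13.

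All 9 genes of tethers, SNAREs and Golgi membrane proteins were higher in Zip7 KO under the label Lgr5-Hi (55% of all genes). Their median was 0.31, and 4 of them were higher by 0.32 or more (6.93% of all genes). Stx5a, the SNARE on which fusion of ER vesicles with the Golgi depends, had the largest difference of the 45 genes. It stood at 10.15 in Zip7 KO and 9.58 in control under Lgr5-Hi, and 9.39 in Zip7 KO and 9.48 in control under Lgr5-Med. Thus 1 array stood apart from the other 3, by 0.57 from its control (1.48-fold). A larger difference was found for 1.14% of all genes counted. Stx5a was picked as the largest of 45, so this place is no evidence that it stands out. Under Lgr5-Med it was at -0.09. Uso1, which encodes the tether p115, stood at 9.44 in Zip7 KO and 8.97 in control under Lgr5-Hi, and 8.60 in Zip7 KO and 8.58 in control under Lgr5-Med, with differences of 0.47 and 0.02. Yif1a, a membrane protein of the ER and Golgi, stood at 8.63 in Zip7 KO and 8.21 in control under Lgr5-Hi, and 7.97 in Zip7 KO and 8.05 in control under Lgr5-Med, with differences of 0.41 and -0.08.

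Yipf5, of the same family of membrane proteins as Yif1a, stood at 9.38 in Zip7 KO and 9.03 in control under Lgr5-Hi, and 8.73 in Zip7 KO and 8.67 in control under Lgr5-Med, and was higher in Zip7 KO by 0.35 and 0.06. Its second probe set gave 0.26 and -0.06, so its place past 0.32 under Lgr5-Hi depends on the probe set. The SNARE genes Bet1, Gosr2, Gosr1 and Sec22b were higher under Lgr5-Hi by 0.31, 0.30, 0.18 and 0.11, and Gorasp2, a Golgi stacking protein, by 0.23. Under Lgr5-Med 6 of the 9 genes were higher (44.2% of all genes), between -0.09 and 0.12 in all.

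The fractions differed in the same genes, and more widely in Zip7 KO. Labelled Lgr5-Hi was above labelled Lgr5-Med for 42 of 45 transport genes in Zip7 KO, with 49.3% of all 12158 genes, and for 40 of 45 in control, with 43.3% of all 12252 genes. With each array centred on its median the counts were 42 in Zip7 KO, with 43.4% of all genes, and 43 in control, with 55.5%. The medians were 0.38 (-0.22 to 1.57) in Zip7 KO, against -0.0045 over all genes, and 0.17 (-0.09 to 1.13) in control, against -0.04. Genes higher by 0.32 or more numbered 29 in Zip7 KO, with 15.1% of all genes, and 7 in control, with 7.7% of all genes. When each array was centred on its median they numbered 26 in Zip7 KO, with 13.2% of all genes, and 15 in control, with 11.3%. None was lower by 0.32 or more, as 12.4% of all genes were in Zip7 KO and 13.2% in control. The 5 largest differences in Zip7 KO were those of Kdelr3 (1.57), Sec24d (1.35), Mcfd2 (0.93), Uso1 (0.84) and Sec23a (0.82). In control they were those of Kdelr3 (1.13), Sec24d (0.58), Copz2 (0.55), Sec13 (0.40) and Uso1 (0.39).

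**Figure D3:**
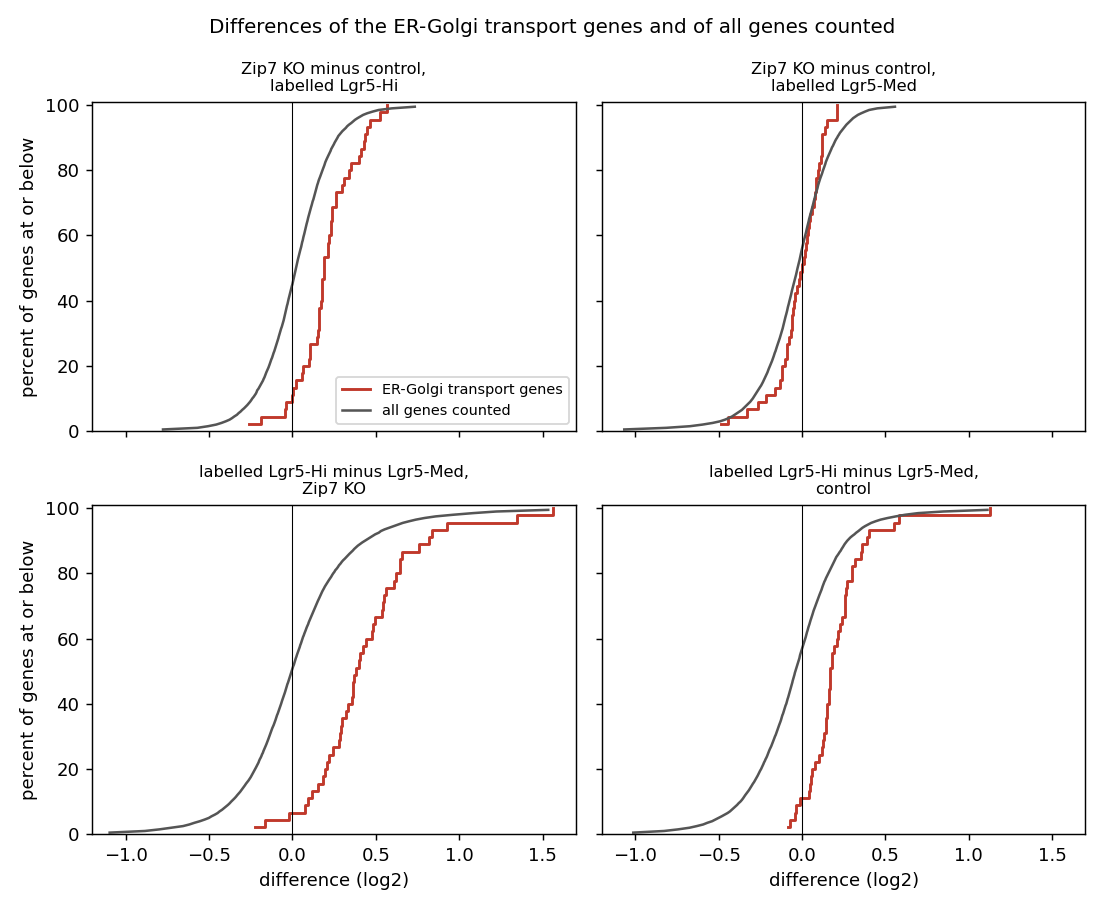
Cumulative share of genes (vertical axis, percent) at or below each difference (horizontal axis, log2) for the 45 ER-Golgi transport genes (red steps) and all genes counted (grey line, drawn for the middle 99 percent) in the 4 comparisons, each of 1 array against 1 array. The red steps lie mostly right of the grey line except under Zip7 KO minus control labelled Lgr5-Med, where the medians are -0.0019 and -0.03.

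Taking the genotype difference under Lgr5-Hi minus that under Lgr5-Med, which is also the fraction difference in Zip7 KO minus that in control, 38 of the 45 genes were above 0, with 59.9% of all 12426 genes. The median was 0.23 against 0.05 over all genes. Centring each array on its median moved the value of all genes by -0.11, to -0.05, and left 31 of the 45 above 0, with 39.9% of all genes. Relative to the median of all genes the transport genes were at 0.17. Past 0.32 were 12 upwards, with 11.4% of all genes, and 0 downwards, with 5.05%. With centred arrays 7 were past 0.32 upwards, with 5.95% of all genes, and the median was 0.12. The 5 largest were Mcfd2 (0.88), Sec24d (0.76), Sec23a (0.67), Stx5a (0.65) and Yif1a (0.49). These comparisons share arrays, in particular the Zip7 KO array labelled Lgr5-Hi, so they do not support one another, and the difference was not tested.

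A wider list of 75 further genes of the same route, which holds tethering complexes, SNAREs, small GTPases and p24 proteins, had 70 genes above the floor. Under the label Lgr5-Hi 57 of the 70 were higher in Zip7 KO and 13 lower, with a median of 0.13, while 55% of all genes were higher. By 0.32 or more 5 were higher, close to the 6.93% of all genes, and 1 lower, with 5.55% of all genes. The largest differences were those of Tmed6 (-0.58), a p24 gene, Trappc2l (0.51), of the TRAPP tethering complex, Scfd1 (0.51), which encodes the syntaxin-5 partner SLY1, Nbas (0.45), of an ER tether for returning vesicles, and Gorasp1 (0.41), a Golgi stacking protein. Under Lgr5-Med 28 were higher and 42 lower, with a median of -0.04. This was close to all genes, of which 44.2% were higher, with a median of -0.03. By 0.32 or more 2 were higher and 5 lower, close to the 3.47% and 8.39% of all genes. The largest there were the GTPase gene Rab2a (0.60), the exit site gene Sec16b (-0.53), Gorasp1 (-0.38), Tmed8 (0.35) and Sec22c (-0.35). Labelled Lgr5-Hi minus Lgr5-Med had a median of 0.23 in Zip7 KO and 0.03 in control over these genes.

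ER chaperone genes differed by more than the transport genes. All 17 with a value were higher in Zip7 KO under the label Lgr5-Hi (55% of all genes), with a median of 0.69. Of these, 15 were higher by 0.32 or more (6.93% of all genes). Under Lgr5-Med 16 of 17 were higher (44.2% of all genes), with a median of 0.18. Among 10 genes of transcription factors known to act on ER and transport genes, 8 were higher under Lgr5-Hi, with a median of 0.12, and 2 under Lgr5-Med, with a median of -0.19. Xbp1, which is also controlled by splicing, stood at 11.18 in Zip7 KO and 11.04 in control under Lgr5-Hi, and 10.63 in Zip7 KO and 10.84 in control under Lgr5-Med. Atf6, a sensor that is cleaved in the Golgi after leaving the ER in COPII vesicles, stood at 9.62 in Zip7 KO and 9.01 in control under Lgr5-Hi, and 8.45 in Zip7 KO and 8.63 in control under Lgr5-Med, with differences of 0.61 and -0.18.

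Markers of secretory cells, which are rich in ER and Golgi, also differed between the arrays. In these sorted bulk samples fewer cells of a type and less RNA per cell cannot be told apart. Of all genes counted, 5407 of 12017 were lower in Zip7 KO under Lgr5-Hi and 6835 of 12257 under Lgr5-Med. Of 11 Paneth cell markers 10 were lower in Zip7 KO under the label Lgr5-Hi, with a median of -0.74, and 11 under Lgr5-Med, with a median of -1.33, among them Lyz1 (-0.11 and -0.67) and Mmp7 (-1.55 and -1.89). Their summed level, as log2, was 15.25 on the Zip7 KO and 15.65 on the control array labelled Lgr5-Hi, and 14.23 on the Zip7 KO and 15.14 on the control array labelled Lgr5-Med. Of 9 goblet cell markers 6 were lower under Lgr5-Hi (median -0.05) and 8 under Lgr5-Med (median -0.38), with Muc2 at -0.24 and -1.03 and Tff3 at -0.05 and -0.12, and with summed levels of 15.42 on the Zip7 KO and 15.42 on the control array labelled Lgr5-Hi, and 13.95 on the Zip7 KO and 14.40 on the control array labelled Lgr5-Med. Under Lgr5-Hi most transport genes were higher in Zip7 KO, and most Paneth markers and 6 of 9 goblet markers were lower. The goblet sum, which rests on the most abundant of these markers, was level. Under Lgr5-Med both marker lists were mostly lower, and the transport genes lay on both sides of 0. The part of these cells in the genotype differences was not tested.

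Between the fractions the secretory markers went the same way as the transport genes. Labelled Lgr5-Hi minus Lgr5-Med had medians of 1.33 in Zip7 KO and 0.99 in control for Paneth markers, 1.33 and 1.02 for goblet markers, and 2.34 and 2.14 for enteroendocrine markers. Stem cell markers were at -1.49 and -1.21, all 10 of them lower in the arrays labelled Lgr5-Hi, where 49.3% of all genes in Zip7 KO and 43.3% in control were higher. The part of these markers' cells in the fraction differences of the transport genes was not tested. Enterocyte markers were at 0.46 and 0.04, and tuft cell markers at 0.37 and 0.98.

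Zip7 KO minus control, under the labels Lgr5-Hi and Lgr5-Med, gave medians of -0.19 and -0.23 for enteroendocrine markers, including Chga at -0.53 and -0.71 and Chgb at -0.51 and -0.26. They were -0.02 and -0.44 for enterocyte markers (all 12 lower under Lgr5-Med), -0.16 and -0.04 for stem cell markers, and -0.05 and 0.33 for tuft cell markers. Lymphocyte and myeloid markers were at -0.94 and -0.96, with 10 of 11 lower under either label, and stromal and endothelial markers at -0.18 and 0.07. Of all genes, 55% were higher under Lgr5-Hi and 44.2% under Lgr5-Med. Plasma cells, which are professional secretors, were looked for by 8 markers, of which Jchain, Tnfrsf17, Prdm1, Irf4 and Cd79a were below the floor on all 4 arrays. The 3 others had medians of -0.11 (over the 2 above the floor) and -0.04.

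**Figure D4:**
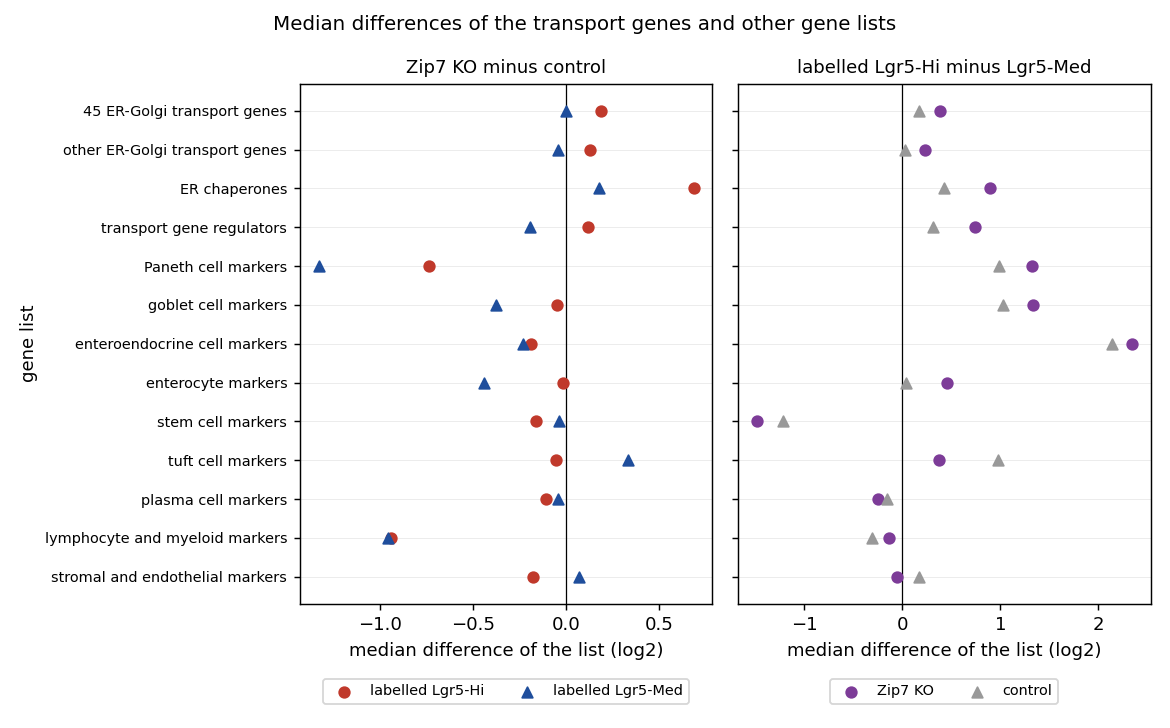
Median difference (log2, horizontal axis) of the 45 ER-Golgi transport genes and of the other gene lists, for Zip7 KO minus control under each fraction label (left) and labelled Lgr5-Hi minus Lgr5-Med in each genotype (right). Each point is the median over the list's genes above the floor, from 1 array against 1 array; under Lgr5-Hi the transport genes are at 0.19, ER chaperones at 0.69 and Paneth markers at -0.74.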

How the data were processed

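The authors' deposited values are 1 log2 value per probe set and array, made with RMA according to the submitters' processing notes; the sources used here give no software, version, log base or genome build. They were taken as log2 because all lay between 3.08 and 14.60, with array medians of 6.34 to 6.45. All 4 columns were used. Of 35557 probe sets, 21789 had 1 gene symbol in the platform annotation, 1621 had several and 12147 were not listed, and only the first kind was used. For 42 of the 45 transport genes there was 1 probe set, and all 45 matched the RefSeq gene table (GRCm38.p6) by Entrez ID.

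The floor of each array was percentile 95 of 1203 genes of smell and pheromone receptors, and a gene was counted in a comparison if above it on at least 1 of the arrays compared. There were 4 comparisons of 1 array with 1 array, and no test. Differences were computed with Python 3.11.15 and pandas 2.3.3, checked on made-up arrays with known changes. Described with values were, per role, up to 4 genes with the largest genotype difference, the 5 with the largest of each fraction difference and of the difference between genotype differences, and the 3 with the smallest genotype difference; of the wider list, the 5 largest; of other lists, the first 2. Values of further transport genes were added after they were seen. The genes, 12 lists and 4 motifs were chosen with earlier results of these data known. The 8 alternatives covered scaling, floor, probe sets and fold.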

Additional observations from a re-analysis of the deposited data

Results flagged for a closer look

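Sec24d and Mcfd2 differed in opposite directions between the genotypes under the 2 fraction labels, each by 0.32 or more with the deposited values. Centring each array on its median moves every gene of a comparison alike, and Sec24d was then inside 0.32 under Lgr5-Med. For Sec24d the 2 genotype differences (0.43 under Lgr5-Hi and -0.33 under Lgr5-Med) were 0.76 apart, and for Mcfd2 (0.43 and -0.45) they were 0.88 apart. With 1 array per genotype and label these differences were not tested, and groups of 1 array allow no search for outlying samples.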

How the results depend on the processing

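The summary values of the transport genes were recomputed with quantile normalisation, with arrays centred on the median, with a loess trend on level removed, with a floor at percentile 99 or none, with the mean of a gene's probe sets, and with other folds. No value of a named gene past 0.32 turned its sign under any of these. The median under the label Lgr5-Hi lay between 0.11 (loess) and 0.19, and the number of genes higher in Zip7 KO between 37 and 40 of 45, with 45.3% (quantile, 37 genes) to 59% (floor at percentile 99, 40 genes) of all genes. The median difference between the genotype differences was 0.12 with centred arrays, against 0.23, and 7 genes then exceeded 0.32 in place of 12, with 5.95% of all genes. In control, 15 genes were higher by 0.32 or more in the array labelled Lgr5-Hi with centred arrays and 11 with the loess trend removed, in place of 7. In Zip7 KO they were 26 and 27, in place of 29. At 1.5-fold the counts were 0 higher in Zip7 KO under Lgr5-Hi and 0 lower under Lgr5-Med, 11 higher in the array labelled Lgr5-Hi in Zip7 KO and 1 in control, and 4 for the difference between genotype differences, where 1.08%, 2.10%, 5.88%, 2.30% and 2.33% of all genes passed. At 2-fold they were 0, 0, 2, 1 and 0 in the same order, with 0.25%, 0.62%, 1.87%, 0.669% and 0.322% of all genes. No paired analysis was possible because each group is 1 array and no test was made. With 1 array per group, the spread between mice is not measured, and sex differs with genotype.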
